A study of Gasterosteus aculeatus with 242 samples.

Results

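Among the genes measured in the brains of juvenile threespine sticklebacks (Gasterosteus aculeatus), 190 had a level in males near 50% of the level in females. They were chosen from the counts themselves: of 8549 genes with a mean of at least 5 counts per 1000000 counts of the library (CPM), these were the ones whose log2 ratio of the male mean to the female mean lay from -1.2 to -0.8, that is, from 43.5% to 57.4% of the female level. The choice used the sex contrast over all fish, so the sex ratios over all fish are a description of what was chosen. Nothing is read from a test of them. The files held 22456 gene identifiers, and the 190 genes made up 2.22% of the 8549 tested. The identifiers are Ensembl stickleback identifiers without symbols, and none of them matched the reference table at hand, so no gene could be given a name, a function or a chromosome, and no list of cell type markers could be read. The term dose is therefore not used as a measured quantity: gene copies were not counted, and what was measured is the level of messenger RNA.

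In threespine sticklebacks males carry an X and a Y chromosome and females carry a pair of X chromosomes. Where a Y chromosome has lost a gene that the X keeps, males have a single copy of it, and animal groups differ in whether expression of such genes is raised in the heterogametic sex or stays lower there, which is the question of dosage compensation. A brain is made of many cell types, and in whole tissue fewer cells of a type and less RNA per cell cannot be told apart. None of this background was used to choose the genes.

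The fish came from 16 families, as read from the leading number of each fish code, with 8 families in each rearing group. Wild-caught fathers (Putah Creek, CA) either raised their offspring (labelled Day 10, father-reared here) or the offspring were orphaned and raised by hand (labelled Day 0, hand-reared here), in a half-sib design. At 6 to 8 months, before sexual maturity, some fish of both kinds explored an open-field pool for 10 minutes, met a moving model of a sculpin, and were killed 60 minutes after that simulated attack, while a full sibling taken from its home tank served as baseline. Sex came from a DNA marker, and RNA from the left or the right side of the brain was read by 3′ tag sequencing, in which a count stands for a transcript end. There were 25 females and 39 males in the hand-reared baseline group, 32 females and 27 males in the hand-reared open-field group, 26 females and 31 males in the father-reared baseline group, and 35 females and 26 males in the father-reared open-field group. Libraries of these fish held 706544 to 1529047 counts with a median of 1007692, so that 1 CPM was about 1 count, and a hand-reared open-field male with a total of 2055 counts was left out by the rule. Library depth was alike in females (median 1017820.5 counts) and males (median 1000618 counts).

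The rule bounded the ratios of the 190 genes, so their median and narrow spread describe the choice. Their log2 ratios had a median of -0.97, quartiles of -1.01 and -0.92 and an SD of 0.07 over genes, against a median of 0.01 over all 8549 tested genes. The male level was thus 51% of the female level in the median gene, and it ranged from 44.3% to 57.3%. Of the 190 genes, 150 lay within 0.1 of -1 on the log2 scale, 7 lay below -1.1 and 33 above -0.9. The numbers of tested genes fell off on both sides of this group: 51 had a ratio from -1.1 to -1.0, 99 from -1.0 to -0.9, 33 from -0.9 to -0.8, 17 from -0.8 to -0.7 and 14 from -0.7 to -0.6, and 3 lay below -1.2. In the mirror range from 0.8 to 1.2, where males are higher, there were 13 genes.

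**Figure D1:**
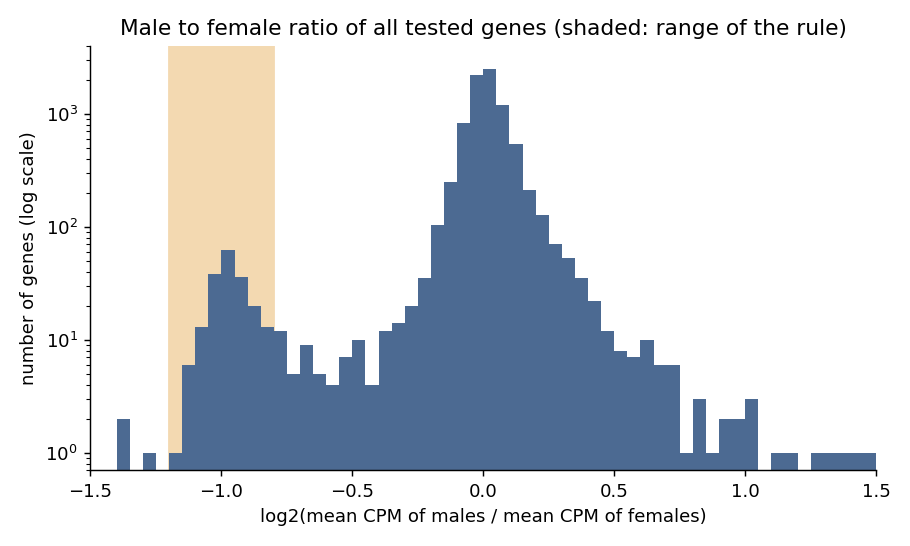
Number of tested genes (vertical axis, log scale) by log2 ratio of the male to the female mean CPM (horizontal axis, bins of 0.05), with the range of the rule shaded. The shaded range holds the 190 genes around a separate peak near -1, while the mirror range on the male-higher side holds 13 genes.

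At the edges of the rule the choice was less clear-cut. Just inside the lower limit lay ENSGACG00000022272 at -1.18 (8.11 CPM in females and 3.59 CPM in males), and just outside it ENSGACG00000005827 at -1.30 (13.9 CPM in females and 5.66 CPM in males). Just inside the upper limit lay ENSGACG00000005915 at -0.80 (7.91 CPM in females and 4.53 CPM in males), and just outside it ENSGACG00000006110 at -0.80 (161.1 CPM in females and 92.7 CPM in males). The gene with the lowest mean inside the rule was ENSGACG00000007166 at 5.04 CPM, and ENSGACG00000006370, with a ratio of -0.95, fell outside at 4.99 CPM.

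The genes with the highest mean level among the 190 were ENSGACG00000006703 and ENSGACG00000007135. In ENSGACG00000006703, the females had 1595 CPM at the lowest, 1858 at the median and 2258 at the highest, and the males had 861.2, 1026 and 1243 CPM. No male reached the lowest female, and the male mean of 1033 ± 86.8 CPM (SD over 66 hand-reared and 57 father-reared males) was 55.6% of the female mean of 1858 ± 130.5 CPM (SD over 57 hand-reared and 61 father-reared females). In ENSGACG00000007135, females had 1156, 1603 and 2242 CPM and males 536.7, 830.6 and 1202 CPM (lowest, median, highest). Here 2 males lay above the lowest female, and the male mean was 51.9% of the female mean. Both genes were lower in males in 16 of 16 families, and within each family every female was above every male.

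Of the 190 genes, 10 had every female above every male over all fish, against 0.117% of the tested genes, which are the same 10 genes. The lowest mean among these 10 was 95.7 CPM. For the other 180 genes the sexes overlapped in single fish, and the overlap followed the level. Among the 64 genes with the lowest means (5.04 to 15.7 CPM) the median gene had 87.8% of males above the lowest female and 5.69% above the female median. Among the 63 genes with the highest means (42.6 to 1437 CPM) the median gene had 5.69% of males above the lowest female, and in 61 of the 63 no male was above the female median. Within single families, where fish share parents, 30 of the 190 genes had every female above every male in all 16 families. The same 30 genes, 0.351% of those tested, were all the tested genes that did so.

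Summed over the 190 genes, the sexes did not overlap in any fish, which is a description, since each gene was chosen for its lower male mean in these same fish. The genes took up 1.67% of a library's counts in the lowest female, 1.77% in the median female and 1.87% in the highest female. In males they took up 0.842%, 0.916% and 0.988% in the lowest, median and highest fish. The male mean of 0.913% ± 0.027 (SD over all males) was 51.5% of the female mean of 1.77% ± 0.044 (SD over all females), and 51.1% when the sum was set against the counts of all other genes. The 10 genes with the highest means held 44% of these counts. Without those 10 genes the lowest female had 0.915% and the highest male 0.556%.

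**Figure D2:**
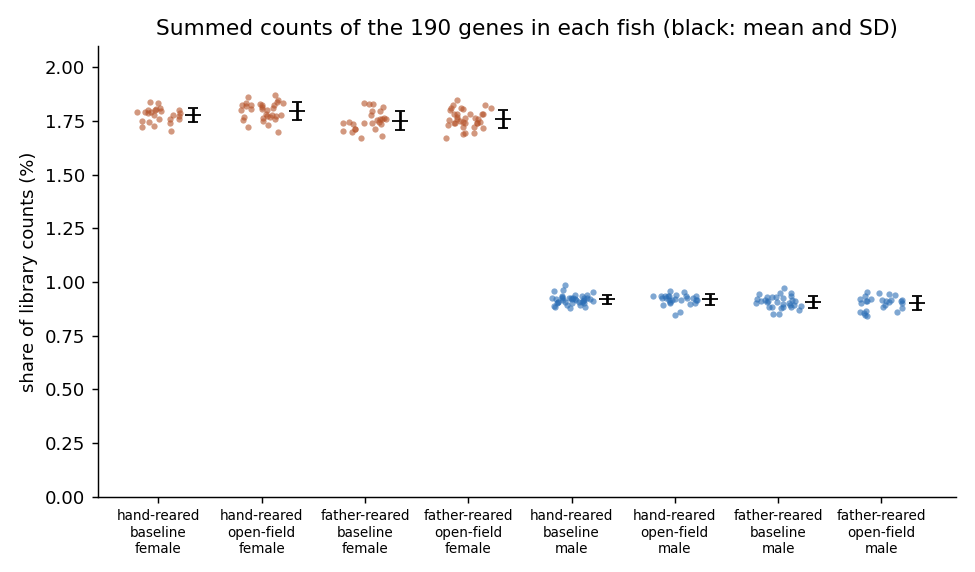
Share of each library's counts held by the 190 genes (vertical axis, percent), 1 point per fish, by sex, rearing and exposure, with the mean and SD in black. Females lie between 1.67% and 1.87% and males between 0.842% and 0.988% in all groups.

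The lower male level was present in every family. All but 8 of the 190 genes, or 95.8%, were lower in males in 16 of 16 families, against 2.75% of the 8549 tested genes, and the other 8 were lower in 15 families (7 genes) or in 14 (1 gene). The rule used these same fish, so this count is a description only. For the same reason nothing is read from the test of sex over all fish, in which all 190 genes were called lower in males, against 4.85% of the tested genes (edgeR quasi-likelihood test, adjusted p under 0.05). Of 3040 values, 1 per gene and family, 3031 were below 0. The family medians of the 190 log2 ratios ran from -1.01 in father-reared family 07 (7 females, 8 males) to -0.92 in father-reared family 27 (6 females, 6 males), with an SD of 0.02 over families. The summed male share was between 49.8% of the female share in hand-reared family 39 and 52.5% in father-reared family 35. Families 32 and 40, with 3 males and 4 females respectively as their smaller sex, had medians of -0.96 and -0.99, within the range of the others.

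**Figure D3:**
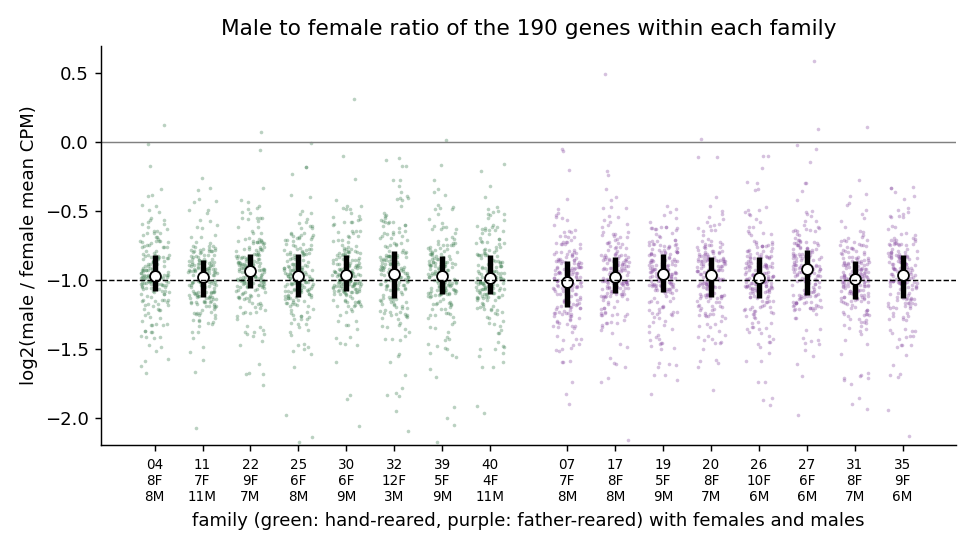
Log2 ratio of the male to the female mean CPM (vertical axis) of each of the 190 genes within each of the 16 families (horizontal axis, with the number of females and males), with the median as a white circle and the quartiles as a black bar. All 16 medians lie between -1.01 and -0.92, and 10 of the 3040 values lie below -2.2 and are not drawn.

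Single genes varied more among families than the medians did. A gene's ratio had a median SD of 0.22 over the 16 families, from 0.05 to 1.43, and the median gene was inside the range of the rule in 10 of 16 families. The 8 genes that were not lower in males in every family had means of 6.34 to 24.8 CPM. In 7 of these 8 the male mean was above the female mean in 1 family, by 0.01 to 0.59 on the log2 scale. Over all 190 genes, with both sexes of a family counted, the smaller of the sums had a median of 137.5 counts per gene. Counting error alone gives a median SD of 0.16 over families for these 190 genes. In each of the 8 genes named above as exceptions the median of such sums was below 137.5 counts. Of these 8 genes, 6 were among the 64 of lowest level, where counting error alone gives a median SD of 0.28.

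The spread of a gene's ratio over families was wider at low levels. The rule held all ratios near -1 at any level, so nothing is read from the median ratio by level, which was -0.98 in the 64 genes of lowest level, -0.97 in the 63 of middle level (16 to 42.6 CPM) and -0.98 in the 63 of highest level. The SD over families fell from 0.37 to 0.21 and 0.12 in the same order, and counting error alone would give 0.28, 0.16 and 0.09. Of the 95 genes above the median level, 95 were lower in males in all 16 families, and of the 95 below it 87 were. In edgeR's fit over all fish the standard error of the log2 fold change had a median of 0.05, from 0.01 to 0.15. In ENSGACG00000006703 the edgeR value was -0.84 (SE 0.01). The coefficient of variation between fish had a median of 23.1% in females and 30.9% in males over the 190 genes. Males had fewer counts of these genes at alike depth, so counting error is larger relative to their mean. Whether males varied more beyond counting error was not tested. The median biological coefficient of variation that edgeR estimated was 0.13 for the 190 genes and 0.14 for all tested genes.

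**Figure D4:**
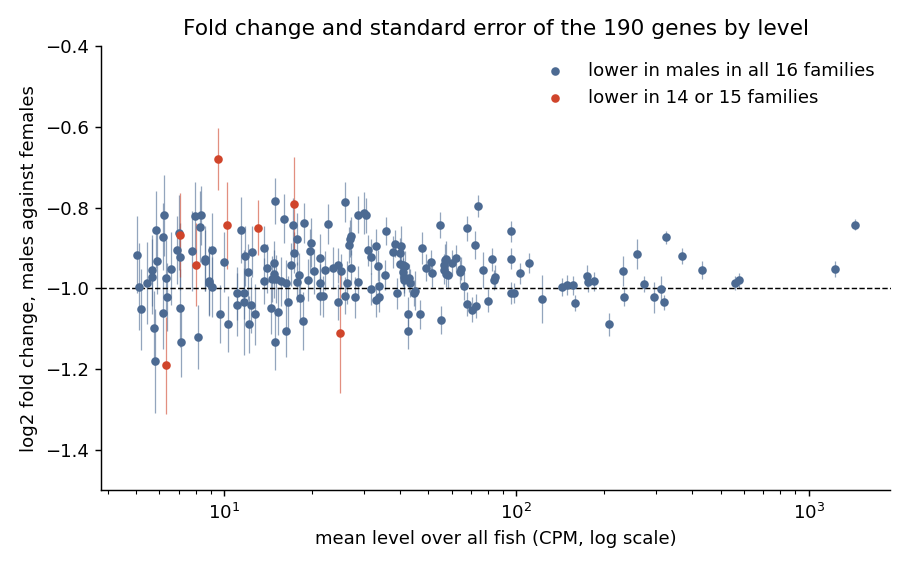
Log2 fold change of males against females from edgeR's fit (vertical axis, bars of 1 standard error) by mean level over all fish (horizontal axis, CPM on a log scale) for the 190 genes, with the genes lower in males in 14 or 15 families in red. The rule held the values near -1 at all levels, and the bars are wider at low levels.

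Whether genes chosen in some fish are also lower in males in other fish was tested by choosing them in a rearing group and testing them in the other. The test was for a difference from 0, not for the same ratio. The rearing groups have different families, but parents shared among half-sib families were not modelled. The rule applied to hand-reared fish alone gave 7 genes fewer than over all fish. In father-reared fish all but 1 of them (99.5%) were called lower in males (edgeR quasi-likelihood test, adjusted p under 0.05), against 3.98% of the 8549 tested genes, and their median log2 fold change was -0.96. The lowest p belonged to ENSGACG00000007744, which had 614.4, 742.2 and 921.5 CPM in 61 father-reared females and 285.3, 372.8 and 490.5 CPM in 57 father-reared males (lowest, median, highest). The sexes did not overlap, and the log2 fold change was -0.99 (SE 0.03, edgeR adjusted p = 7.0e-64). The 1 gene not called was ENSGACG00000013107, which is not among the 190 and is named here because it was the exception. Females averaged 12.6 ± 10.2 CPM and males 10.2 ± 10.1 CPM, at a log2 fold change of -0.25 (SE 0.22, edgeR adjusted p = 0.62).

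The converse choice, in father-reared fish, gave 2 genes fewer than over all fish, and 2 of the chosen genes did not reach 5 CPM over all fish and did not enter the test. In hand-reared fish all but 1 of the tested genes (99.5%) were called lower in males (edgeR, adjusted p under 0.05), against 3.50% of the tested genes, again with a median of -0.96. ENSGACG00000006703 had the lowest p, with 1610, 1888 and 2167 CPM in 57 hand-reared females and 870.5, 1014 and 1201 CPM in 66 hand-reared males (lowest, median, highest). The sexes did not overlap here either (log2 fold change -0.87, SE 0.02, edgeR adjusted p = 3.8e-71). The 1 gene not called was ENSGACG00000007833, also not among the 190. Females averaged 20.3 ± 22.2 CPM and males 12.3 ± 10.3 CPM, at a log2 fold change of -0.58 (SE 0.20, edgeR adjusted p = 0.060). Of the genes chosen in hand-reared fish, 90.2% were also inside the range from -1.2 to -0.8 in father-reared fish, and 18 genes were outside it. The genes on both lists made up 89.6% of those chosen in hand-reared fish and 87.2% of those chosen in father-reared fish.

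Sex ratios within rearing groups, exposures and brain sides are given as a description, since the genes were chosen on the mean over these same fish. All 190 genes were below 0 in each of these and in each of the 4 groups of rearing and exposure. They were also below 0 in each of 3 plates, a grouping read here from the leading digit of the library names. The median log2 ratio was -0.97 in hand-reared and -0.97 in father-reared fish, -0.97 in baseline and -0.98 in open-field fish, and -0.97 on the left and -0.98 on the right side. In the plates it was -0.95, -0.98 and -0.98, and in the 4 groups of rearing and exposure it lay between -0.98 and -0.96. These medians are again steadier than single genes by construction. The difference between father-reared and hand-reared ratios ran from -0.53 to 0.50 on the log2 scale, and it exceeded 0.5 in size in 2 of the 190 genes. No gene exceeded 0.5 between exposures (from -0.46 to 0.45) or between sides (from -0.38 to 0.43).

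Differences of the sex effect between conditions were tested with an interaction term, which the choice of genes did not use. For sex by rearing, on counts summed per family and sex with family as a block, 0 of the 190 genes were called, and 0 of all 8549 (0%, edgeR, adjusted p under 0.05). Without adjustment, 10 of the 190 genes and 651 of all genes had a p under 0.05, and 0 were called by DESeq2 too. The median standard error of this term was 0.11. In 90% of the 190 genes its 95% interval held only differences under 1.5-fold. The interval was taken as normal around the estimate, which makes it somewhat narrow for so few sums. The lowest p among them was in ENSGACG00000006521. In this gene the family means of females were 27.6, 29.5 and 35.1 CPM in hand-reared and 23.7, 27.7 and 31.3 CPM in father-reared families (lowest, median, highest of 8), and those of males were 10.8, 12.8 and 15.8 CPM against 12, 14.2 and 19.2 CPM. The family ranges of the rearing groups overlapped in both sexes, and the difference was 0.31 (SE 0.11, edgeR adjusted p = 0.58). In the other direction, ENSGACG00000010047 had family means of males of 3.81, 4.41 and 5.20 CPM in hand-reared and 2.27, 3.01 and 4.52 CPM in father-reared families, with those of females at 6.02 to 10.4 and 6.37 to 8.49 CPM. Its difference was -0.42 (SE 0.17, edgeR adjusted p = 0.63).

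For sex by exposure, on single fish with family as a block, 0 of the 190 genes were called, and 0 of all (0%, edgeR), with 9 of the 190 and 430 of all genes at an unadjusted p under 0.05 and 0 called by DESeq2. The 95% interval stayed within 1.5-fold of no difference in all but 15 of the 190 genes. ENSGACG00000007891 had the lowest p: females averaged 405.1 ± 73 CPM at baseline and 431.5 ± 76 CPM after the open field, and males 216.1 ± 38.1 and 202.9 ± 30.7 CPM (SD over 51, 67, 70 and 53 fish). These group means differed by less than 1 SD, and the difference of the sex effect was -0.19 (SE 0.06, edgeR adjusted p = 0.91). In ENSGACG00000013487, which had the lowest p in the other direction, females went from 30.3 ± 5.91 to 28.8 ± 6.83 CPM and males from 14.6 ± 4.44 to 15.7 ± 4.12 CPM (difference 0.22, SE 0.09, edgeR adjusted p = 0.95). For sex by brain side 0 of the 190 and 0 of all genes were called (0%, edgeR), with 10 of the 190 and 419 of all at an unadjusted p under 0.05 and 0 called by DESeq2. In all but 11 of the 190 genes the 95% interval stayed within 1.5-fold. ENSGACG00000005119 averaged 76.4 ± 10.2 CPM on the left and 77.1 ± 10.5 CPM on the right in females, and 40.9 ± 8.28 and 37.3 ± 7.11 CPM in males (difference -0.17, SE 0.06, edgeR adjusted p = 1.0). ENSGACG00000005737 averaged 54.5 ± 8.85 and 50.9 ± 8.71 CPM in females, and 26.5 ± 6.07 and 28.8 ± 6.73 CPM in males (difference 0.17, SE 0.08, edgeR adjusted p = 1.0).

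Among families, the sex effect of some of the genes was called as different. The sex-by-family term was called in 11 of the 190 genes, against 29 of all 8549 genes, or 0.339% (edgeR quasi-likelihood test, adjusted p under 0.05). Most tested genes had little difference between the sexes, with quartiles of the log2 ratio at -0.03 and 0.06. The 190 genes were not compared here with other genes of a large sex difference. DESeq2 called 18 of the 190 and 42 of all genes, and without the plate term edgeR called 7 of the 190 and 21 of all. At an unadjusted p under 0.05 there were 49 of the 190 genes (25.8%) and 531 of all (6.21%). The 11 genes had means of 7.07 to 432.9 CPM and adjusted p-values (edgeR) of 6.0e-07 to 0.036, and 9 of them were still lower in males in all 16 families, so the families differed in how far males were lower. All 11 were also among the genes whose level differed among families of a rearing group. That test used the same fish and called 53.7% of the 190 genes and 58.5% of all tested genes (edgeR, adjusted p under 0.05).

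The lowest p was in ENSGACG00000005996 (edgeR adjusted p = 6.0e-07). Its log2 ratio ran from -1.5 in hand-reared family 25 to -0.72 in hand-reared family 22. In family 25 the 6 females had 268.7, 305.3 and 359.3 CPM and the 8 males 90.3, 106.1 and 129.5 CPM (lowest, median, highest). In family 22 the 9 females had 195.6, 248.7 and 297.5 CPM and the 7 males 120.6, 152.9 and 194.3 CPM, so females were lower and males higher than in family 25. Across families, median levels of females went from 208.5 CPM in family 31 to 364.6 CPM in family 26, and those of males from 98 CPM in family 31 to 179.2 CPM in family 35. Over all fish 27 males lay above the lowest female, yet within each of the 16 families every female was above every male.

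ENSGACG00000010244 had the next lowest p (edgeR adjusted p = 6.1e-05), and its values were of another kind. No fish lay between 6.37 and 18.9 CPM: 42 females and 67 males were below that gap and 76 females and 56 males above it. In families 04, 26, 35 and 39 all fish of both sexes were below the gap. In families 20 and 27 the sexes lay on opposite sides: females of family 20 had 25.4, 42.2 and 46.8 CPM and males 0, 1.01 and 3.01 CPM, and females of family 27 had 32.2, 36.6 and 50.4 CPM and males 0.84, 1.55 and 3.42 CPM (lowest, median, highest). In families 11, 22 and 31 all fish of both sexes were above the gap. There, females of family 11 had 59.4 to 75.9 CPM and males 25.2 to 47.9 CPM, and females of family 31 had 52.1 to 88.6 CPM and males 18.9 to 39.5 CPM, with no overlap of the sexes. In family 22 females, at 27.5 to 38.5 CPM, and males, at 23 to 42.6 CPM, overlapped fully.

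In the remaining 7 families ENSGACG00000010244 was found on both sides of the gap within a sex. In family 07 the 7 females had 34.8 to 86.5 CPM, while males ran from 1.02 to 44.5 CPM with a median of 4.02 CPM. In family 17 the median of 8 females was 18.7 CPM and that of 8 males 34.5 CPM, and the male to female log2 ratio of means was 0.50. Over all families, males were on both sides of the gap in 7 families and females in 3. The highest male had 52 CPM, and 28 females from 7 families were above it. The ratio of -0.96, by which this gene was chosen, came from the means of all males (17 CPM) and all females (33.1 CPM). Within families the ratio ran from -4.72 in family 20 and -4.33 in family 27 to 0.07 in family 22 and 0.50 in family 17. The other 12 families lay between -2.44 and -0.48. In families with all fish below the gap these are ratios of low values. The edgeR estimate of its biological coefficient of variation, 0.83, was the highest of the 190 genes.

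**Figure D5:**
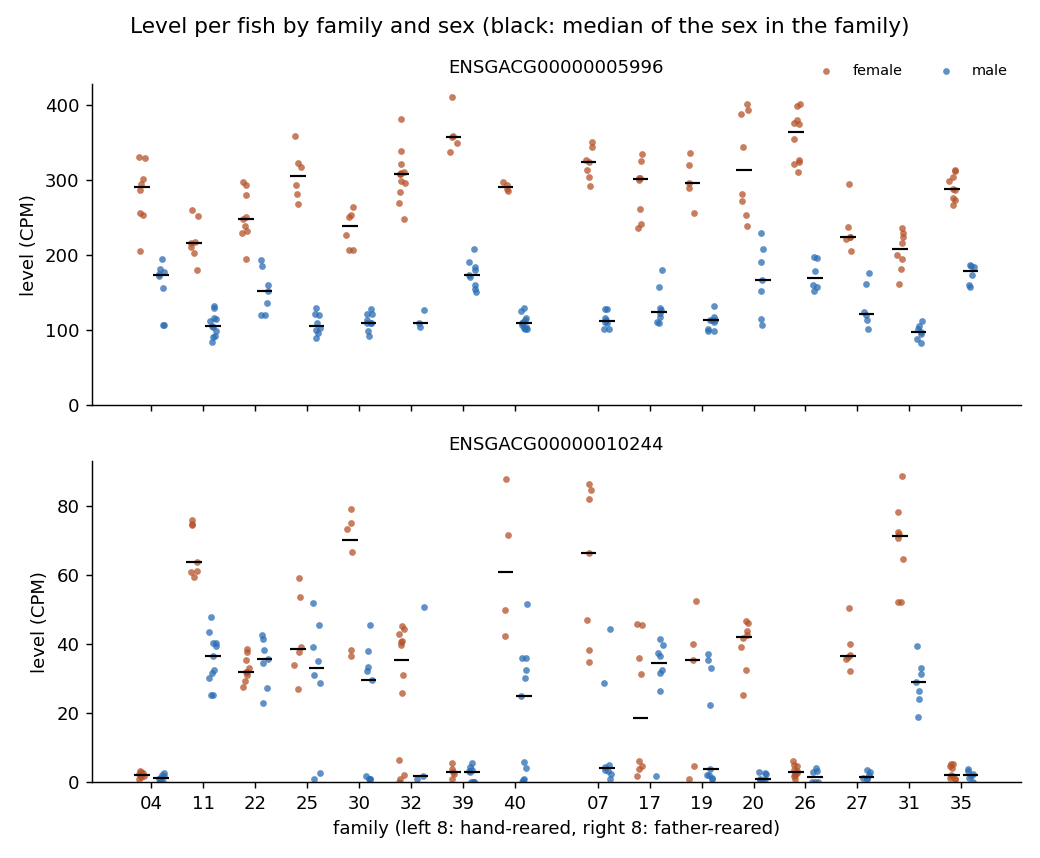
Level in each fish (vertical axis, CPM) of ENSGACG00000005996 (upper panel) and ENSGACG00000010244 (lower panel) by family (horizontal axis) and sex, with the median of each sex in a family in black. In the upper gene females are above males within every family, and in the lower gene no fish lies between 6.37 and 18.9 CPM and 4 families have all fish below that gap.

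The level of many of the 190 genes, apart from the sex difference, varied among families. Among families of the same rearing group 53.7% of the 190 genes were called (edgeR, adjusted p under 0.05), beside 58.5% of all tested genes, so the share among the 190 was near that of all genes. ENSGACG00000010244 (edgeR adjusted p = 3.0e-31) and ENSGACG00000005996 (edgeR adjusted p = 5.1e-28) again had the lowest p-values.

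Rearing itself was tested in each sex with family sums as replicates, 8 families against 8. In females 0 of the 190 genes and 0 of all genes were called (0%, edgeR), with 10 of the 190 and 493 of all under 0.05 before adjustment. By DESeq2 0 of the 190 were called. In males 0 of the 190 and 0 of all genes were called (0%, edgeR), with 15 of the 190 and 875 of all under 0.05 before adjustment, and again 0 of the 190 by DESeq2. The 95% interval stayed within 1.5-fold of no difference in 184 of the 190 genes in females and in 170 in males. It was again taken as normal, which makes it somewhat narrow for so few family sums, so these counts are upper values. In females ENSGACG00000007166 was at 6.34, 7.70 and 8.40 CPM in hand-reared and 4.56, 5.82 and 7.48 CPM in father-reared families (lowest, median, highest family mean), overlapping ranges with a difference of -0.36 (SE 0.11, edgeR adjusted p = 0.63). ENSGACG00000005632 was at 23, 25.8 and 29.2 CPM in hand-reared and 27.2, 30.5 and 45.3 CPM in father-reared families (0.33, SE 0.10, edgeR adjusted p = 0.63). In males ENSGACG00000004357 was at 71.6, 94.3 and 117.8 CPM in hand-reared and 47.7, 69.4 and 84.6 CPM in father-reared families (-0.42, SE 0.11, edgeR adjusted p = 0.23). ENSGACG00000013856 was at 3.27, 4.69 and 6.54 CPM in hand-reared and 4.73, 6.90 and 10.8 CPM in father-reared families (0.58, SE 0.17, edgeR adjusted p = 0.24). The family ranges overlapped in all 4 genes.

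Exposure to the open field moved none of the 190 genes past the threshold. Of all tested genes 0.55% (47) were called between open-field and baseline fish and 0 of the 190 were (edgeR), with 12 of the 190 and 519 of all at an unadjusted p under 0.05. DESeq2 called 1 of the 190 (0.53%), beside 53 of all tested genes (0.62%). In all 190 genes the 95% interval of the exposure effect stayed within 1.5-fold of no change. The open-field group held more females (67, beside 53 males) than the baseline group (51, beside 70 males), so levels of these genes are given by sex. ENSGACG00000003639 came nearest: females had 2.66, 8.84 and 17.1 CPM at baseline and 1.1, 7.81 and 16.7 CPM after the open field, and males 0, 3.96 and 12.7 CPM and 0, 3.25 and 9.82 CPM (lowest, median, highest). The groups overlapped widely, and the log2 fold change was -0.32 (SE 0.09, edgeR adjusted p = 0.051, and 0.036 by DESeq2). In the other direction ENSGACG00000013862 had medians of 19.5 and 19.3 CPM in females and 10.2 and 12 CPM in males (0.13, SE 0.05, edgeR adjusted p = 0.58).

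Between brain sides 0 of the 190 genes were called, beside 0.152% (13) of all tested genes (edgeR), with 16 of the 190 and 724 of all under 0.05 before adjustment and 0 of the 190 called by DESeq2. ENSGACG00000007545 averaged 11.6 ± 7.91 CPM on the left (58 females and 61 males) and 8.86 ± 5.58 CPM on the right (60 females and 62 males), a log2 fold change of -0.39 (SE 0.10, edgeR adjusted p = 0.080), and was higher on the right in 4 of 16 families. ENSGACG00000007717 averaged 15.1 ± 10.2 and 19.6 ± 13.3 CPM (0.36, SE 0.11, edgeR adjusted p = 0.19), and was higher on the right in 11 of 16 families. These SDs include the difference between the sexes. Within each sex the side differences of both genes were also smaller than 1 SD between fish. ENSGACG00000007545 averaged 15.2 ± 8.80 and 11.8 ± 5.92 CPM in females and 8.08 ± 4.89 and 6.02 ± 3.35 CPM in males (left, right). ENSGACG00000007717 averaged 18.9 ± 11.7 and 26.0 ± 15.2 CPM in females and 11.5 ± 7.03 and 13.5 ± 7.05 CPM in males.

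After family, plate, side, exposure and sex had been removed, the correlation of log2 values over fish had a median of 0.006 over pairs of the 190 genes and 0.009 over pairs of all tested genes. These correlations are descriptions, since all genes of a fish share its library. With the mean of the other members, a gene's correlation had a median of 0.063 and quartiles of -0.02 and 0.147, and it ran from -0.30 in ENSGACG00000005957 to 0.35 in ENSGACG00000003597.

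All but 3 of the 190 identifiers carried numbers from 3257 to 14118, a run with bounds set by the genes themselves that held 52.3% of all tested genes. In fixed blocks of 2000 numbers, members made up 0 of 653 tested genes below 2000, 2.34% from 2000 to 3999, 5.94% from 4000 to 5999, 4.97% from 6000 to 7999 and 3.80% from 8000 to 9999. They made up 3.23% from 10000 to 11999, 2.2% from 12000 to 13999, 0.361% from 14000 to 15999, and 0 of 893 and 0 of 793 in the next 2 blocks. The last blocks held 1 of 446 from 20000 to 21999 and 2 of 22 from 22000 to 23999. Of the 13 genes in the mirror range 12 had identifiers in the same run, and of the 56 genes with ratios above -0.8 and up to -0.4 there were 48. How identifier numbers relate to place in the genome was not analysed here. In all but 8 of the 190 genes every female had at least 1 count, and in 150 every male did.

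The 56 genes between -0.8 and -0.4, next to the chosen range, had a lower median level and a wider spread over families. Their median ratio was -0.62, with a mean level of 5.03 to 277.3 CPM (median 17.2, beside 26.1 for the 190 genes). Of these 56 genes, 35 were lower in males in all 16 families, and the median SD of their ratio over families was 0.29, beside 0.22 for the 190 genes. That SD was larger at low levels among the 190 genes, and the sets were not compared at equal level. The 13 genes of the mirror range had a median ratio of 0.97, and 6 of them were higher in males in all 16 families, with a median SD over families of 0.71. These counts follow from ranges set on the same values, so they are given without a test.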

How the data were processed

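Brain RNA of 242 fish was measured by 3′ tag sequencing. In the authors' deposited table the values are counts in whole numbers, per gene identifier, library and lane. FastQC 0.11.8, STAR 2.2.3a and HTSeq 0.9.1 are named in the submitters' processing notes. Genome build, annotation, strand setting and duplicate removal were not given in the sources used here, so genes that overlap or have near-identical copies are uncertain. Counts of a library's 6 lanes were added up to give 1 fish, the library under 500000 counts was dropped, and CPM were computed here from library totals. Sex, rearing, exposure and side come from the labels. Family, sibling pair and plate were read here from fish and library codes. Shared parents among half-sib families were not modelled.

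Genes with a mean of at least 5 CPM were tested with edgeR 4.0.16 (R 4.3.3): quasi-likelihood F-tests, TMM scaling, Benjamini-Hochberg adjustment over all 8549 genes, called at adjusted p under 0.05. Standard errors are the log2 fold change over the square root of F. Single-fish fits had family, plate, side, exposure and sex as terms. Rearing was tested on family sums per sex, and sex by rearing on 32 sums with family as a block. Families are the replicates for rearing, and fish are separate animals otherwise. DESeq2 1.42.0 was an alternative, beside other scalings, filters, terms and blocks. The fits were also run on simulated data with known changes. Beyond those changes the simulated data held no differences among families or plates. They therefore cannot show how such differences affect the rearing tests. The interval given for the share in the dropped library covers counting error alone. Copies of the same molecule cannot be set apart in these counts, so it may be too narrow.

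The 190 genes and the tests were chosen with earlier results of these data known. Genes named are the 2 of highest mean level, the 1 with the lowest p in each direction of a test (the 2 with the lowest p where a test has no direction, the 1 with the lowest p in each sex test across rearing groups), the highest and lowest in likeness, and those at the limits of the rule; exceptions are said to be so. Per the labels, open-field fish have a matched full sibling at baseline. Which fish form a pair was read here from the family and fish number in the fish codes. By that reading 114 pairs had both fish in use. Residuals of paired fish, after family, had a median correlation of -0.06 over genes, beside -0.07 for other siblings of the other exposure.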

Additional observations from a re-analysis of the deposited data

Results flagged for a closer look

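The sex difference varied among the 16 families in 11 of the 190 genes (edgeR, adjusted p under 0.05), a difference between groups tested by the sex-by-family term. In ENSGACG00000005996 (edgeR adjusted p = 6.0e-07) the male to female log2 ratio ran from -1.5 to -0.72 over families. In ENSGACG00000010244 (edgeR adjusted p = 6.1e-05) it ran from -4.72 to 0.50, 14 of 16 families had lower means in males, and single fish fell on either side of a gap from 6.37 to 18.9 CPM. Of 50 sets of 8 family values, each from a single rearing group, 1 had a family standing apart, and chance alone flags about 2.5. There the log2 ratio of ENSGACG00000007166, a gene of 5.04 CPM on average, was -1.86 in father-reared family 31, with the next father-reared family at -0.81.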

How the results depend on the processing

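The number of genes chosen by the rule, 190, was 150 with the range narrowed to -1.1 to -0.9. It rose by 48 genes with a mean of at least 2 CPM and dropped by 37 with at least 10 CPM. It dropped by 1 gene with medians of each sex, with the shallow library kept and with TMM-scaled CPM, and it was again 190 by edgeR's fold change, without 5 of the 190. Leaving out 1 family at a time moved it by between 1 gene fewer and 6 genes more. The number of the 190 genes called for sex by family, 11, was 18 with DESeq2 and 7 without the plate term. For exposure 0 became 1 with DESeq2, with RLE size factors and with the shallow library kept, in each case ENSGACG00000003639 at log2 fold changes of -0.33, -0.32 and -0.32 (adjusted p 0.036, 0.049 and 0.049). The causes were not tested. The other counts of called genes stayed within 1.5 times of the main count in every alternative that could be fitted, and no named gene changed sign. Family within rearing was called in 49.5% to 59.1% of the genes tested.

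With the sibling pair as the replicate block in place of family, all but 4 of the genes chosen in hand-reared fish were called lower in father-reared males. The other way round it was all but 5. Of all 8549 tested genes, these fits called 285 lower in males in father-reared fish and 250 in hand-reared fish. With this block 0 of the 190 were called for exposure (52 of all), sex by exposure (0 of all) and sex by brain side (0 of all). Brain side with this pairing could not be fitted, since both fish of a pair gave the same side. Over all genes, rearing in males gave 0 calls by edgeR and 54 by DESeq2, and rearing in females 0 and 5. Depth limits genes of low level: near 5 CPM a fish gives about 5 counts, and a family's ratio then carries a large counting error.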

Other observations

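In the library left out for depth, of a hand-reared open-field male, 21 of 2055 counts fell on the 190 genes, a share of 1.02% (95% Wilson interval 0.669% to 1.56%, counting error only). That interval lies below the lowest female share of 1.67%, and it includes the male mean of 0.913%. It also reaches above the highest male share of 0.988%, so it includes shares between those of the sexes. Whether all counts of this library came from this fish was not tested.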
